A study of Homo sapiens with 12 samples.

Results

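The long nucleolus-associated regions of naive human embryonic stem cells are described here. They are the 386 rows of the naive list on chromosomes 1 to 22 that measure 100 kb or more from start to end, out of 58225 naive regions on those chromosomes. They were selected on their measured naive length alone, so their number, length and clustering are given as a description with no test. The regions come from H9 cells, an established human embryonic stem cell line, kept either in RSeT medium (labelled naive) or in mTeSR medium (labelled primed), with no further treatment. The 12 libraries are 3 each of nucleolar DNA from naive cells, whole-cell DNA from naive cells, nucleolar DNA from primed cells and whole-cell DNA from primed cells. The deposited values are 1 list of regions per state on the hg38 assembly, on a 10 kb grid and with no score, so the read depth is unknown. With a single list per state there is no spread between replicates and nothing to test the states against. A second cell line is not in the design, and the state of the cells cannot be checked on marker genes, since a list of DNA regions holds no expression.

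Nucleolus-associated domains are stretches of chromosomes that lie at the nucleolus, where the ribosomal RNA genes are transcribed and ribosomes are assembled. The ribosomal RNA genes sit on the short arms of the acrocentric chromosomes (13, 14, 15, 21 and 22). Domains at the nucleolus are known in other cells for late-replicating, gene-poor heterochromatin, for sequence beside centromeres, and for silent clusters of tissue-restricted genes such as olfactory receptors and zinc finger genes.

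Sequences of 7 microRNA arms are shown first because they lie in 2 of the long regions whose content is known for its role in development. The first 6 come from a 490 kb region of chromosome 21 (16240001 to 16730000), the second longest of all. This region held 69.8% of the host gene MIR99AHG and the whole hairpins of MIR99A, MIRLET7C and MIR125B2. The seventh comes from a 130 kb region of chromosome 14 (100890001 to 101020000) in an imprinted domain. Capitals mark the seed, bases 2 to 8. Sequences and positions are from RefSeq, GRCh38.p14.
hsa-miR-99a-5p: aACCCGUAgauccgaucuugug
hsa-miR-99a-3p: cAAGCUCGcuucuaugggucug
hsa-let-7c-5p: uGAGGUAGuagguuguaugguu
hsa-let-7c-3p: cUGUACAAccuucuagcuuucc
hsa-miR-125b-5p: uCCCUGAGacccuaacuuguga
hsa-miR-125b-2-3p: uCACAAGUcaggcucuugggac
hsa-miR-370-3p: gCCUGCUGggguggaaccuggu
The 3 precursors of chromosome 21 are read from the plus strand, with miR-99a-5p at chr21:16539101-16539122, let-7c-5p at chr21:16539838-16539859 and miR-125b-5p at chr21:16590253-16590274. The let-7 family is known to promote differentiation and is kept low in pluripotent cells by LIN28 proteins. The let-7c-5p seed is shared by 12 microRNA loci of chromosomes 1 to 22, of which 1 lay in a long naive region. All 3 hairpins were also wholly in a primed region.

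Long naive regions were a small part of the naive list. They made up 0.663% of its regions on chromosomes 1 to 22 and 4.99% of its sequence, 54.3 Mb of 1089 Mb. Their lengths ran from 100 to 520 kb with a median of 120 kb. Short ones prevailed: 278 measured 100 to 140 kb, 61 measured 150 to 190 kb and 47 measured 200 kb or more. At the limit itself, 99 regions measured exactly 100 kb and were 88.1% covered by primed regions, while the 148 regions of 90 kb just outside it were 81.9% covered. The first 3 regions in file order on either side of the limit were alike in this respect, with all 3 at 100 kb and all 3 at 90 kb wholly in primed regions.

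The long naive regions gathered on few chromosomes. Chromosome 21 held 67 of them, 11.8 Mb in all, which was 17.4% of their number and 21.7% of their sequence, and they filled 29.9% of that chromosome's 39.6 Mb analysed. Its density was 1.69 long regions per Mb. Chromosome 14 followed with 50 regions (0.561 per Mb) and chromosome 22 with 19 (0.499 per Mb). The lowest densities were on chromosome 4, with 4 regions (0.0210 per Mb), and chromosome 1, with 5 (0.0217 per Mb). Over chromosomes 1 to 22 the density was 0.140 per Mb.

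Acrocentric chromosomes held 182 of the 386 long regions, or 47.2% (Wilson 95% interval 42.2% to 52.1%, which covers counting error only), against 12.6% of the shorter naive regions and 12.7% of the sequence analysed. The share depended in part on chromosome 21. Without it, 115 of the 319 other long regions, or 36.1%, lay on chromosomes 13, 14, 15 and 22, which hold 11.4% of the other sequence. Among regions of 200 kb or more, 72.3% were acrocentric and 38.3% lay on chromosome 21. Chromosomes 19 and 20, which are not acrocentric, had 19 and 22 long regions, or 0.338 and 0.342 per Mb.

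**Figure D1:**
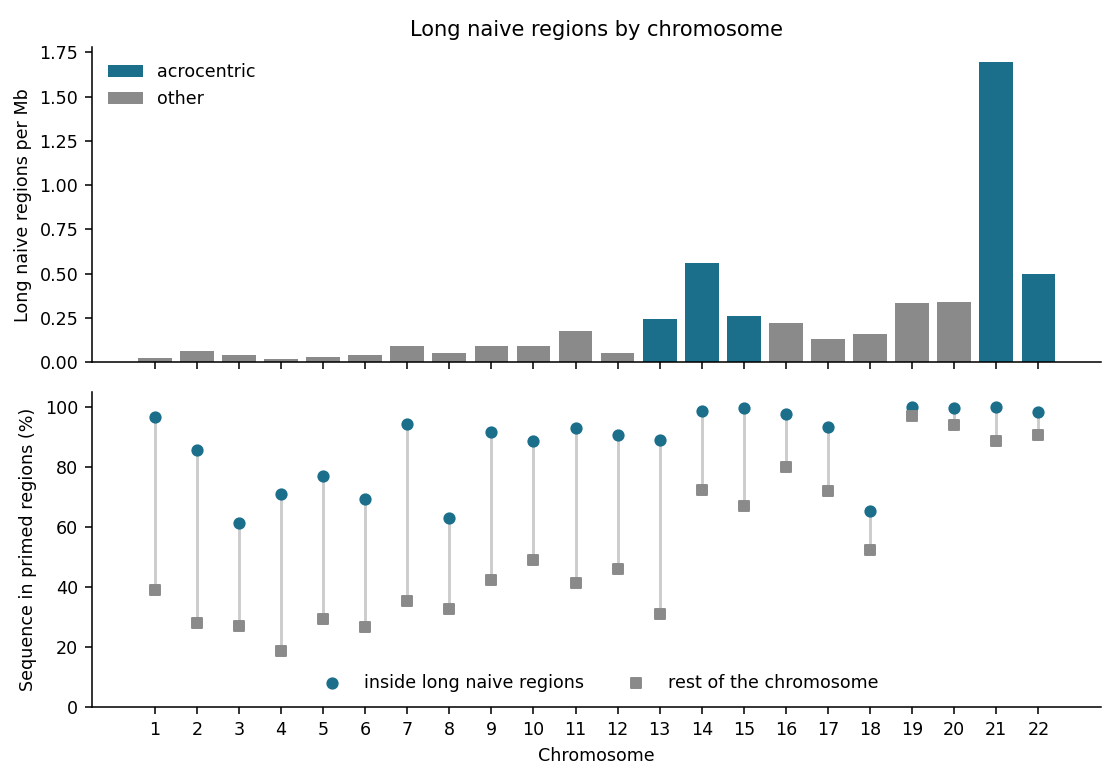
Upper panel, number of naive regions of 100 kb or more per Mb analysed on each of chromosomes 1 to 22, with the acrocentric chromosomes in blue. Lower panel, percent of sequence in primed regions inside these long regions (circles) and in the rest of the same chromosome (squares); chromosome 21 stands highest at 1.69 per Mb, and the circle lies above the square on all 22 chromosomes.

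Many long regions lay close to large empty stretches, which are runs of at least 500 kb that held neither a region of either list nor a gene. There were 14, on 11 of the 22 chromosomes. Of the long naive regions, 101 (26.2%, Wilson 95% interval 22.03% to 30.8%) lay within 5 Mb of such a stretch, against 2.70% of shorter naive regions, and 3.40% of the sequence analysed lies that close. Within 2 Mb the shares were 12.7% of long and 1.07% of shorter regions. Ends of chromosomes showed no such excess. Only 9 long regions, or 2.33%, came within 2 Mb of a chromosome end, against 2.96% of shorter naive regions. The other 11 chromosomes have no such stretch and add none to these counts. Sequence beside centromeres and on acrocentric arms holds many near-identical copies, and the placement of its reads was not tested.

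Long naive regions also followed one another closely. Of 364 neighbouring pairs on the same chromosome, 48 were parted by a single 10 kb unit and 68 by at most 50 kb, with a median gap of 350 kb. Gaps of up to 50 kb tied 112 long regions into 44 runs, 11 of them on chromosome 21. The longest run had 8 regions over 2.06 Mb of chromosome 21 (23140001 to 25200000), and long naive regions filled 96.1% of it. A run of 3 on chromosome 16 (35190001 to 36240000) spanned 1.05 Mb and was 95.2% filled. Both runs lay wholly in primed regions, so the short gaps that end the naive regions did not end the primed ones.

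The primed state was measured independently of the length rule, and nearly all of the long naive sequence was in primed regions too. Primed regions covered 93.8% of the long naive regions, 50.98 of 54.3 Mb, against 50.8% of shorter naive regions and 37.7% of the sequence outside naive regions. In the background, 43.7% of the 10 kb units of chromosomes 1 to 22 were in a primed region and 39.5% in a naive region. Counted by region, 318 of the 386 long regions (82.4%, Wilson 95% interval 78.3% to 85.9%) lay wholly inside primed regions, against 40.0% of the 57839 shorter naive regions. A further 62 overlapped in part, and 6 (1.55%, Wilson 95% interval 0.714% to 3.35%) touched no primed region, against 49.0% of shorter regions. These intervals take regions as independent, and neighbours within 1 primed region are not.

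Coverage by primed regions was higher in each longer class of naive region. It was 41.0% for regions of 10 kb, 51.0% for 20 to 40 kb, 69.8% for 50 to 90 kb, 90.8% for 100 to 140 kb, 96.6% for 150 to 190 kb and 99.0% for 200 kb or more. The share lying wholly inside primed regions had its lowest value, 37.0%, at 20 to 40 kb, then 50.3% at 50 to 90 kb, 78.4% at 100 to 140 kb, 88.5% at 150 to 190 kb and 97.9% at 200 kb or more. The mix of chromosomes changed along the same classes. Acrocentric chromosomes held 10.9% of regions of 10 kb and 72.3% of those of 200 kb or more, and chromosome 21 held 0.556% and 38.3%. The classes were not compared within chromosomes.

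**Figure D2:**
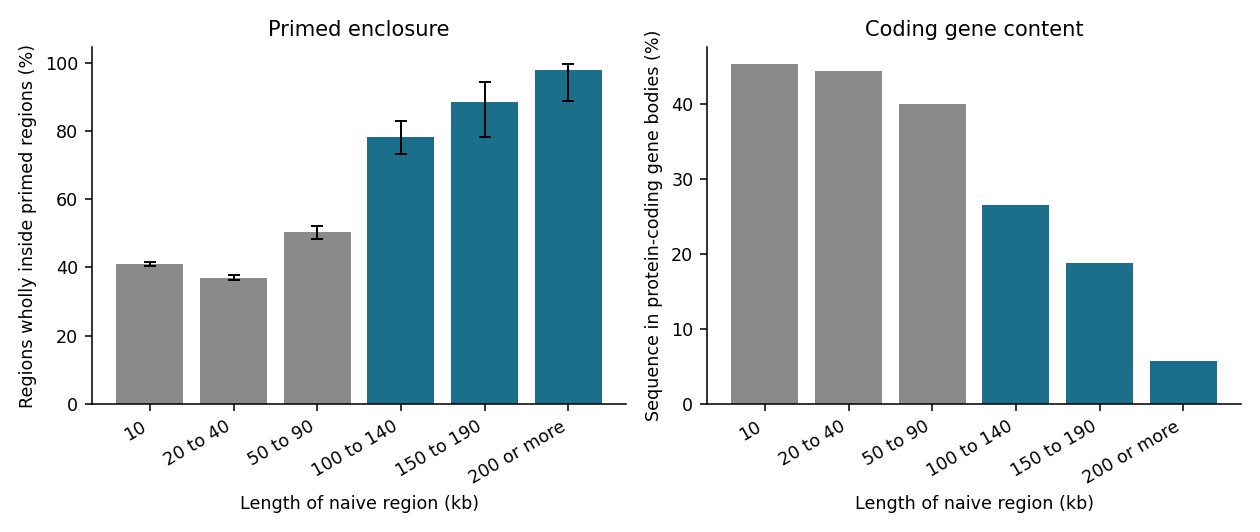
Naive regions of chromosomes 1 to 22 by length in kb (grey under 100 kb, blue from 100 kb). Left, percent of regions wholly inside primed regions with Wilson 95% intervals, from 41.0% at 10 kb to 97.9% at 200 kb or more. Right, percent of their sequence in protein-coding gene bodies, from 45.2% at 10 kb to 5.68% at 200 kb or more. The mix of chromosomes also changes with length.

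Chromosomes differ widely in primed coverage, so each was also taken on its own. Primed regions covered more of the long naive regions than of the rest of the same chromosome on 22 of 22 chromosomes, by 2.82 to 58.9 percentage points. The smallest gap was on chromosome 19, which was almost filled by primed regions, with 100% inside the long regions and 97.2% outside. The largest was on chromosome 7, with 94.4% and 35.4%, followed by chromosome 13 with 89.2% and 31.1%. The rest of each chromosome, weighted by the long naive sequence it carries, gave 66.4%, and shorter naive regions weighted the same way gave 72.4%. Both weighted values lie above the unweighted ones and below the 93.8% of the long regions.

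On chromosome 21, all 67 long naive regions lay wholly inside primed regions. Primed regions covered 92.1% of that chromosome and 99.0% of its shorter naive sequence, so coverage there was high with or without great length. Outside chromosome 21, 251 of 319 long regions lay wholly inside (78.7%, with 92.1% of sequence covered). Outside all 5 acrocentric chromosomes, 149 of 204 did (73.0%, with 89.0% of sequence covered). Long regions within 5 Mb of an empty stretch were 99.8% covered, and 98 of 101 were wholly inside. The 285 others were 91.3% covered and 77.2% of them wholly inside. The primed share of all sequence that close to an empty stretch was not measured.

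**Figure D3:**
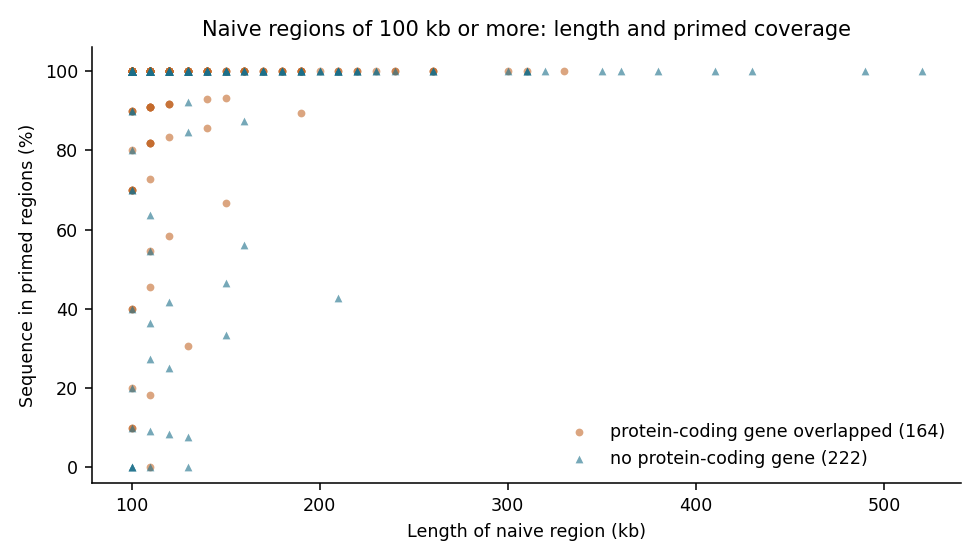
Each point is 1 of the 386 naive regions of 100 kb or more, by its length in kb and the percent of its sequence in primed regions; orange circles overlap a protein-coding gene (164) and blue triangles none (222). Beyond 210 kb every point is at 100%, and the 6 points at 0 measure 100 to 130 kb.

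Primed regions around the long naive ones were mostly longer still. Each of the 318 enclosed regions lay in a single primed region, as gap-free coverage by separate regions must. In all, 123 primed regions held them, from 110 kb to 21.4 Mb long with a median of 0.82 Mb. An enclosing region cannot be shorter than the one it holds, so these lengths are in part set by the choice of enclosed regions. Of the 318, 229 lay in 52 primed regions of at least 1 Mb, which as a class, 100 in number, span 9.92% of the sequence analysed. One primed region of chromosome 21 (12960001 to 34380000) held 54 long naive regions that filled 45.2% of its 21.4 Mb. On chromosome 14, a primed region at 19610001 to 31370000 held 23 that filled 30.4% of its 11.8 Mb. The 2 lists rarely agreed on an edge. Both edges matched in 2 of the 318 cases and at least 1 edge in 38, and the nearer primed edge was a median of 480 kb away.

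This wide enclosure showed in the flanks. From the edges of the long naive regions out to 1000 kb, primed regions covered 86.8% to 89.1% of each 50 kb step, with 87.5% in the first step and 86.8% in the last. Around naive regions of 50 to 90 kb the range was 65.7% to 66.9%, and around regions of 10 kb it was 40.4% to 40.8%. Long regions outside the acrocentric chromosomes had flanks at 80.2% to 84.0%. Flanks of neighbouring regions overlap, and flanks were not counted where they ran into an empty stretch. Naive coverage of the same flanks, from the list that chose the regions, was 54.7% in the first step. It was highest, 69.6%, at 50 to 100 kb and stood at 62.7% in the last step.

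**Figure D4:**
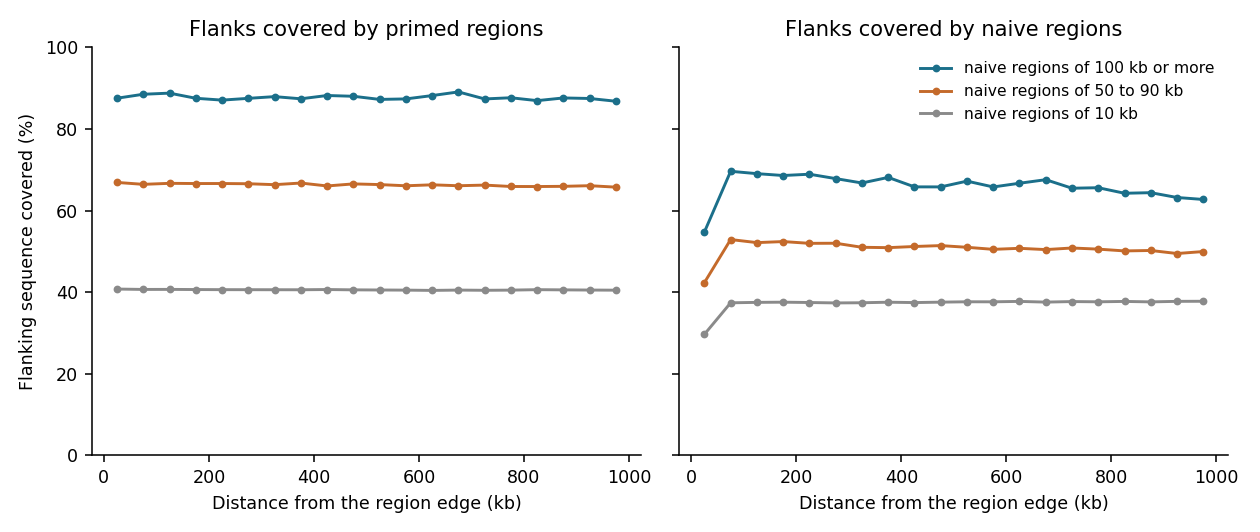
Percent of flanking sequence covered by primed (left) and naive (right) regions in 50 kb steps from the edges of naive regions of 100 kb or more, of 50 to 90 kb and of 10 kb. Primed coverage beside the long regions stays between 86.8% and 89.1% out to 1000 kb; the dip in naive coverage next to an edge follows from every region ending in uncovered sequence.

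The 6 long naive regions that no primed region touched were all near the length limit. The longest was 130 kb on chromosome 18 (65310001 to 65440000) and overlapped the non-coding gene LINC01916 alone. Another 3 were on chromosome 13: 64260001 to 64370000, 69090001 to 69190000 and 85300001 to 85400000, the last with part of the non-coding gene LINC00351. The fifth, 110 kb on chromosome 6 (101480001 to 101590000), lay within GRIK2, which encodes a kainate-type glutamate receptor subunit. It held 16.3% of that gene, and primed regions covered 0.930% of the whole gene against 48.2% in naive regions. The last, 100 kb on chromosome 8, overlapped no annotated gene. No protein-coding gene lay whole in any of the 6.

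Including these 6, 27 long naive regions were less than 50% covered by primed regions. They lay on 14 chromosomes, with 5 of the 13 long regions of chromosome 18, 4 of the 8 of chromosome 3 and 3 of the 24 of chromosome 13. Among them, 9 overlapped a protein-coding gene, and these 9 genes are named after their values were seen. They were ROBO1 and DCC, axon guidance receptors, CADM2, a cell adhesion gene, GRIK2, CSMD1, a gene for a membrane protein with complement-control domains, CDH11, a mesenchymal cadherin, SLC5A12, a lactate transporter, FAR1, a fatty acyl-CoA reductase, and CHCHD3, a mitochondrial inner membrane protein. The longest of the 27, 210 kb on chromosome 10 (9710001 to 9920000), was crossed by 8 short primed regions that together covered 42.9% of it. Among the 62 partial overlaps the median coverage was 70%, and 17 missed a single 10 kb unit. Next in length were a 190 kb region of chromosome 14 (46780001 to 46970000) at 89.5%, which overlapped part of MDGA2, a neuronal adhesion gene, and 2 regions of 160 kb with no coding gene. Of these, the one on chromosome 1 (105460001 to 105620000) was at 87.5% and the one on chromosome 8 (34970001 to 35130000) at 56.3%, crossed by 7 primed regions.

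Long naive regions were poor in protein-coding genes by sequence. Coding gene bodies took up 20.2% of their sequence, against 43.9% of shorter naive regions and 43.8% of the sequence analysed. The share was lower than that of the whole chromosome on 22 of 22 chromosomes. The 2 were nearly equal on chromosome 8, with 40.0% in its 8 long regions and 40.3% of the chromosome. Weighting the shares of whole chromosomes by their long naive sequence gave 42.2%. By length, the share was 45.2% for naive regions of 10 kb, 44.3% for 20 to 40 kb, 39.9% for 50 to 90 kb, 26.5% for 100 to 140 kb, 18.8% for 150 to 190 kb and 5.68% for 200 kb or more. As with primed coverage, the mix of chromosomes changed along these classes, which were not compared within chromosomes. Gene bodies of any kind covered 41.3% of long regions and 58.0% of shorter ones.

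By number of genes touched the difference was smaller. The long regions touched 326 of 18973 coding genes, 1.72% of them, or 6.00 per Mb, against 6.88 coding genes per Mb analysed. This order turned without the acrocentric chromosomes, with 7.98 per Mb in long regions and 6.96 per Mb analysed, while the share of sequence in coding bodies stayed apart at 21.9% and 44.2%. The values for long regions count genes touched only in part, so these pairs per Mb are not like for like. Counted by gene midpoints the densities were 4.71 per Mb in long and 6.92 per Mb in shorter naive regions. Midpoints were not counted anew without the acrocentric chromosomes. Of the 326 genes, 204 lay whole inside a long region, with a median length of 4.06 kb, against 24.8 kb for all coding genes. A gene must be short to fit into a region, so the length of those 204 is in part set by the count. Of the 303 coding genes of 500 kb or more, 20 (6.60%) were touched.

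A protein-coding gene was overlapped by 164 of the 386 long regions, or 42.5% (Wilson 95% interval 37.7% to 47.5%), against 51.4% of the shorter naive regions, although a longer region meets a gene more easily. One coding gene was met by 104 of them and 5 or more by 17. The other 222 regions, 32.3 Mb in all, had none, and 46 of these had no annotated gene of any kind. Primed coverage differed little with coding genes: it was 94.0% of the sequence of regions with a coding gene and 93.8% of those without, although 76.2% of the first and 86.9% of the second lay wholly inside. Of the 326 genes touched, 319 met a primed region, where 81.3% of all coding genes do, and 76.7% of all coding genes met a naive region.

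Pseudogenes and immune receptor segments were denser in long naive regions than over the sequence analysed. Pseudogenes numbered 11.8 per Mb of long naive regions, against 5.56 per Mb analysed, and 609 of the 640 touched lay whole inside. Antigen receptor segments (V, D, J and C) numbered 2.02 per Mb, against 0.140 per Mb. Long non-coding RNA genes had 344 of 17525 touched (1.96%), and 243 of the 344 lay whole inside. Over all annotated genes 2.83% were touched. Of transfer RNA genes 4 of 425 were touched (0.941%), and of ribosomal RNA genes placed on these chromosomes 0 of 29, a number too small to read against that share.

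The 10 longest regions showed this content plainly. Of these, 6 lay on chromosome 21, 1 of the 10 overlapped a coding gene, and all 10 were wholly inside primed regions. The longest, 520 kb on chromosome 21 (9540001 to 10060000), held 10 genes, none of them protein-coding. On chromosome 16, a 430 kb region (35580001 to 36010000) held 18 pseudogenes of 5S ribosomal RNA, out of 23 genes, and its neighbour across a 10 kb gap (380 kb, 35190001 to 35570000) held 36 genes, 5 of them FRG2 pseudogenes and none coding. A 360 kb region of chromosome 2 (89960001 to 90320000) lay in the distal kappa light chain locus with 25 IGKV segments and segment pseudogenes. On chromosome 21, a 410 kb region (24340001 to 24750000) held the non-coding gene LINC01684 alone. The only one with a coding gene, 330 kb on chromosome 21 (15000001 to 15330000), held 63.0% of NRIP1, a nuclear receptor corepressor, and the tenth, 310 kb on chromosome 15 (24260001 to 24570000), held part of PWRN1 in the Prader-Willi domain.

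Gene groups were counted by members touched, beside the 1.72% of all coding genes. Immunoglobulin segments are not annotated as coding genes, and over all annotated genes the share was 2.83%. The groups were chosen with earlier results of these data known and carry no test. Immunoglobulin segments had 88 of 183 touched (48.1%), all 88 wholly in primed regions. Of all 183, 181 met a primed region. By locus, with constant segments included, 58 of 92 heavy chain, 25 of 50 kappa and 5 of 49 lambda segments were touched. A 210 kb region of chromosome 14 (106270001 to 106480000) alone held 34 IGHV segments and segment pseudogenes. T cell receptor segments, counted after the immunoglobulin values were seen, had 21 of 190 touched. These loci recombine in lymphocytes and are not rearranged in stem cells.

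Olfactory receptors, silent outside sensory neurons as a rule, had 63 of 388 touched (16.2%) over 16 long regions. On chromosome 11 the count was 35 of 168, on chromosome 14 it was 16 of 24 and on chromosome 12 it was 8 of 18. OR4K1, OR4K17 and OR6C74 lay whole in long naive regions and whole in primed regions. A 300 kb region of chromosome 14 (19990001 to 20290000) held 8 coding receptors from OR4K14 to OR11H4 with TTC5, a tetratricopeptide cofactor of transcription. Neighbouring regions of chromosome 11 (55600001 to 55810000 and 55820001 to 55980000) held 7 coding genes each, all olfactory receptors but TRIM51. Of the 63, 61 were wholly primed, and OR51S1 and OR6C65 met no primed region. Of all 388, 321 met a primed region.

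C2H2 zinc finger genes, most of which encode KRAB repressors of retroelements, had 30 of 555 touched (5.41%), all 30 wholly in primed regions. Of all 555, 523 met a primed region, among them all 264 of chromosome 19. Of the 30 touched, chromosome 19 accounted for 26, out of its 264 members, and the other chromosomes for 4 of 291. ZNF208 (71.1 kb), ZNF676 (81.2 kb) and ZNF43 (47.1 kb) of chromosome 19 lay whole in long naive regions, and ZNF540 lay in one for 77.4% of its body. Outside chromosome 19 the share, 1.37%, was near that of all coding genes.

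Replication-dependent histone genes had 16 of 69 touched (23.2%), and all 16 lay in 1 region of 100 kb on chromosome 6 (26180001 to 26280000), which held more protein-coding genes than any other long naive region. That region was 70% covered by primed regions. Of all 69 histone genes, 48 met a primed region. Of the 16 genes, 12 were wholly primed, H3C4, H3C6 and H2AC8 among them, while H1-3, H2BC6, H4C4 and H4C5 met no primed region, on a 10 kb grid. Together with PKP3, a plakophilin gene of chromosome 11, and the 2 olfactory receptors above, these 4 were the 7 genes of the 326 that no primed region touched. Reads of near-identical histone copies, and of the segment, receptor and zinc finger families, cannot always be told apart.

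Keratin-associated protein genes, which encode hair matrix proteins, had 10 of 94 touched (10.6%), all in primed regions. All 10 lay on chromosome 21, in 3 long regions, KRTAP26-1, KRTAP13-1, KRTAP13-2 and KRTAP11-1 among them. Long naive regions filled 29.9% of that chromosome, and the family was not compared within it. Of all 94, 92 met a primed region. POTE ankyrin genes, a primate family beside centromeres, had 5 of 13 touched: POTED on chromosome 21, POTEH on 22, POTEB on 15 and POTEM on 14 were among them, each wholly primed. All 13 POTE genes met a primed region. TPTE, a testis phosphatase-like gene of chromosome 21, lay whole in a long naive region of 310 kb, and the other touched gene of the 3 on the TPTE and BAGE list was TPTEP2-CSNK1E of chromosome 22, a readthrough of a TPTE pseudogene with a casein kinase gene. Of 45 defensin genes, 3 were touched, DEFB116, DEFB118 and DEFB119 of chromosome 20, all in 1 region of 100 kb. In the skin barrier cluster of chromosome 1, counted after its values were seen, 6 of 19 LCE genes were touched, all in 1 region of 100 kb. FLG, the filaggrin gene, lay whole in another region, of 120 kb.

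Genes of neurons with long bodies were touched in part. Cadherins and neuronal adhesion genes had 5 of 49 touched (10.2%) and glutamate and GABA receptor genes 4 of 41 (9.76%), none of them whole. A longer gene meets a region more easily, and 6.60% of all coding genes of 500 kb or more were touched. Primed regions met 43 of the 49 and 35 of the 41. NCAM2 had 280 kb and DSCAM 179 kb in long naive regions of chromosome 21, GRIK1 had 190 kb, and CTNNA2 of chromosome 2 had 150 kb. NCAM2, DSCAM and GRIK1 were wholly primed, CTNNA2 69.3% and CSMD1 38.1%. The GABA receptor gene GABRA5 of chromosome 15 had 13.3 kb in a long naive region and was wholly primed. NOVA1, a neuronal splicing factor gene of chromosome 14 named after its values were seen, lay whole in a long naive region and was wholly primed.

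No gene of the pluripotency list (0 of 18) or of the single-copy 8-cell list (0 of 19) was touched by a long naive region, though 9 and 10 of them met a shorter naive one and 12 and 15 a primed one. With so few members, a count of 0 cannot be told apart from the 1.72% of all coding genes. Clustered protocadherins (0 of 53), UGT and cytochrome P450 enzymes (0 of 55) and PRAME genes (0 of 22) were also untouched by long regions. So were taste and vomeronasal receptors (0 of 27) and the LILR, KIR and SIGLEC receptors (0 of 30). The same limit holds for each of these lists. In this order, 46, 36, 17, 16 and 21 of their genes met a shorter naive region and 48, 41, 22, 12 and 30 a primed one.

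**Figure D5:**
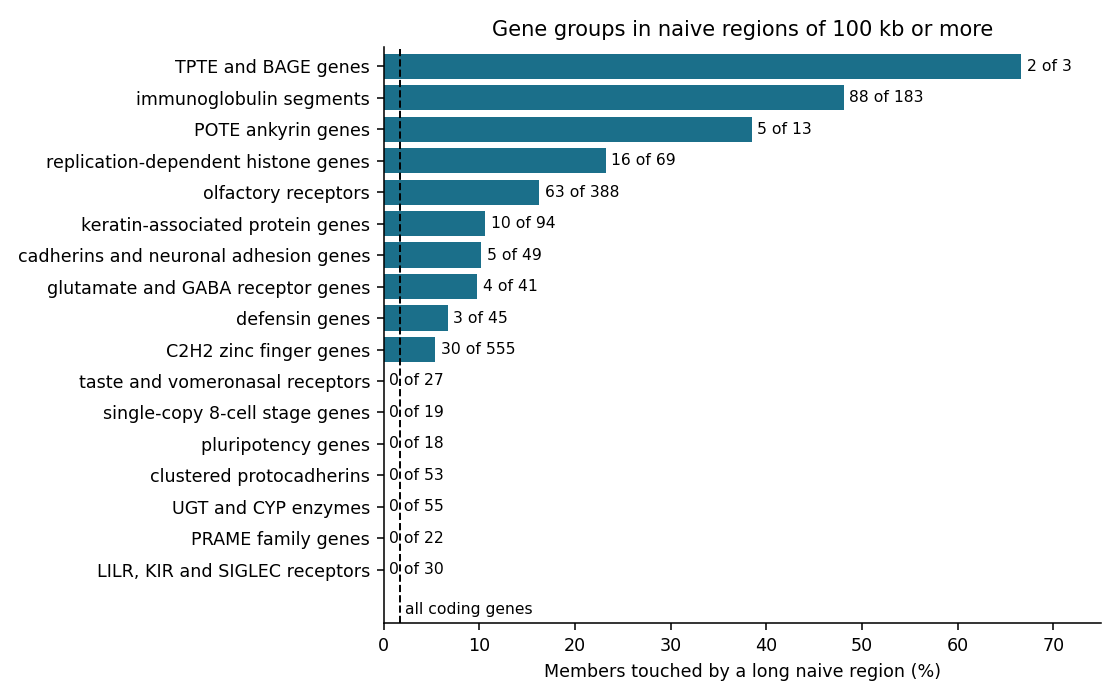
Percent of the members of each gene group touched by a naive region of 100 kb or more, with counts beside the bars. The dashed line is the 1.72% of all protein-coding genes, which do not include immunoglobulin segments. Immunoglobulin segments (88 of 183), POTE genes (5 of 13), histones (16 of 69) and olfactory receptors (63 of 388) stand above the line, and 7 groups are at 0.

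Imprinted domains held some of the long regions. The 130 kb region of chromosome 14 that carries MIR370 held 41 SNORD genes, which were all 41 members of the SNORD112, SNORD113 and SNORD114 group, along with 99.7% of MEG8 and part of RTL1, a retrotransposon-derived gene. It was wholly primed. These 41 made up most of the 53 snoRNA genes touched out of 1144. The C/D box arrays of chromosome 15 had another pattern: none of 78 SNORD115 and SNORD116 genes was touched by a long naive region, 49 met a shorter one, and all 78 met a primed region. MKRN3 and NPAP1, imprinted genes of the same domain of chromosome 15, lay whole in long naive regions. These loci were singled out after their values were seen.

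Of 1793 annotated microRNA genes, 24 (1.34%) lay whole in long naive regions, which made up 1.97% of the sequence analysed. Over all annotated genes 2.83% were touched, a count that takes in longer genes met only in part. Mature arms are reported for 23 of these genes, 31 arms in 20 long naive regions. The hsa-miR-3118 arm occurred 3 times, on chromosomes 15 and 21, and hsa-miR-3156-5p 2 times, on chromosomes 18 and 21. They are shown as the mature sequences that recur.
hsa-miR-3118: uGUGACUGcauuaugaaaauucu
hsa-miR-3156-5p: aAAGAUCUggaagugggagaca
The seed of miR-3118 is held by 5 loci in all and that of miR-3156-5p by 3.

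Promoters inside the long naive regions were CG-poor among those at hand. RefSeq promoters, 250 bases before to 50 after a start, were at hand for 15101 of 18973 coding genes (79.6%), and 266 of them, from 216 genes, lay inside long naive regions. Since fewer than 80% of coding genes had one, a comparison over all coding genes is void, and the values describe the matched promoters only. Their median GC content was 54% (quartiles 38.3% and 65.3%), against 62.3% for promoters in shorter naive regions and 62.7% for all 21156. They held a median of 8 CG dinucleotides (quartiles 2 and 23.8), against 21 in both of the others. The letters TATAAA, searched on both strands, were in 21.8% of them, against 9.56% in shorter naive regions and 9.51% of all. Without olfactory receptors the values were a median of 12 CG, against 21 for all, and 16.3% with TATAAA, against 9.11%. Of the 266, 258 (97.0%) were wholly in primed regions, against 71.1% in shorter naive regions.

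Promoters of 3 genes named above or in the listed clusters are shown, with capitals marking CG. LCE1A, a skin barrier gene on the plus strand at chr1:152827223-152827522, has 2, the lower quartile. NRIP1, on the minus strand at chr21:15064541-15064840, has 48 and is the promoter of the only coding gene in the 10 longest regions. H1-3, on the minus strand at chr6:26234938-26235237, has 11 and lies in naive but not primed sequence. LCE1A and H1-3 hold TATAAA and this NRIP1 promoter does not.
LCE1A: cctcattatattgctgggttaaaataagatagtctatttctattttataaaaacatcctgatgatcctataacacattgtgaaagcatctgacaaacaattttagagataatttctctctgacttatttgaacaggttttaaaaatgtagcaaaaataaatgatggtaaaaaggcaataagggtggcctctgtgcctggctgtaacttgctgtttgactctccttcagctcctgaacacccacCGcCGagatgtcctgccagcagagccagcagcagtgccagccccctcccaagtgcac
NRIP1: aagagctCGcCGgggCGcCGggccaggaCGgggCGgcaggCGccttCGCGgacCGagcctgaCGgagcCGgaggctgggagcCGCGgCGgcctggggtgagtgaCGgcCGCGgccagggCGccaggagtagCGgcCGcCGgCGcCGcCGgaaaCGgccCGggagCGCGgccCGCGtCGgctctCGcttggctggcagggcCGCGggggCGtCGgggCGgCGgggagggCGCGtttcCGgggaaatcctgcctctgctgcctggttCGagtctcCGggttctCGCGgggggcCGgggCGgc
H1-3: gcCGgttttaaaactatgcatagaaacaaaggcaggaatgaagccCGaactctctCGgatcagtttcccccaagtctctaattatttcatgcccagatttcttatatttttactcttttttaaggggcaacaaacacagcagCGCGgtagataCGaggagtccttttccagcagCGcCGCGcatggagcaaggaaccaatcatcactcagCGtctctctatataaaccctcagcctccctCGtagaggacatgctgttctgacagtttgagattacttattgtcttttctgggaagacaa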

How the data were processed

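The authors deposited 1 list of regions per cell state, for which the labels of 6 libraries name a list of nearly the same name; its values are starts and ends in bp on hg38 (unit: other), with no signal or p-value. Per the submitters' processing notes, the tools were BWA, SAMtools 1.10 and SICER. The role and settings of each, the read depth and the merging of replicates are not given in the sources here.

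Regions of chromosomes 1 to 22 were intersected with pandas 2.3.3 and numpy 2.4.6 (Python 3.11.15), intervals came from scipy 1.17.1 and plots from matplotlib 3.10.9. Stretches of at least 500 kb without region or gene were left out (14, 117.4 Mb), which left 2757 Mb. Limits of all 386 regions lie on the 10 kb grid. Genes came from RefSeq (GRCh38.p14): 56080 on chromosomes 1 to 22, any overlap counting as touched. Interval code was tested on simulated regions against a direct count. No significance test was run, since each state has 1 list. Wilson 95% intervals cover counting error.

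Members, 17 gene lists and all settings were chosen with earlier results of these data known. Named regions were the 10 longest, the 5 longest untouched and partly covered, the 5 with most coding genes and the first 3 at the limit; named genes were those in them, and up to 4 per list with most sequence in long regions. Others were chosen after their values were seen. A few genes are not reported here.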

Additional observations from a re-analysis of the deposited data

Results flagged for a closer look

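Chromosome X was outside the rule and held 60 naive regions of 100 kb or more, which no comparison above uses. They covered 7.51 Mb at 0.385 per Mb, against 0.140 per Mb on chromosomes 1 to 22, with a median of 115 kb and a longest of 370 kb. Primed regions covered 94.8% of their sequence, against 77.8% of the chromosome; 42 of the 60 lay wholly inside primed regions and none was untouched. A protein-coding gene was overlapped by 38 of them, or 63.3%. There is no control sample for this count.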

How the results depend on the processing

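Over 8 results, 30 alternatives were run, 6 of them chosen after seeing the data. The number of long regions, 386, was 319 without chromosome 21, 778 with a limit of 80 kb, 108 with 150 kb, 47 with 200 kb and 2586 when naive regions up to 10 kb apart were joined first. Primed coverage of 93.8% was 92.4% as a mean over regions, 87.8% with a limit of 80 kb, 97.9% with 150 kb, 99.0% with 200 kb, 92.1% without chromosome 21, 89.0% without the acrocentric chromosomes, 92.8% without regions within 2 Mb of an empty stretch or chromosome end, 88.8% with primed regions of at least 100 kb only and 95.1% after joining primed regions up to 10 kb apart. Wholly enclosed regions, 318, numbered 335 at 90% coverage, 359 at 50%, 251 without chromosome 21 and 149 without the acrocentric chromosomes, and untouched ones 29 with primed regions of at least 50 kb only. Regions with a coding gene numbered 101 when 50% of a gene body had to lie inside 340 with all annotated genes and 141 without chromosome 21. Coding genes per Mb were 4.71 by midpoint, 3.76 with a limit of 150 kb, 7.98 without the acrocentric chromosomes and 6.96 without chromosome 21. The last 2 stand against 6.96 and 6.89 per Mb analysed on the same chromosomes. Genes touched only in part count in the values for long regions, so these pairs cannot rank long regions against the genome. Midpoints were not counted anew for them. The acrocentric share was 51.3% by sequence and 36.1% without chromosome 21, and the share near an empty stretch 12.7% within 2 Mb and 25.4% without chromosome 21. The causes of these shifts were not tested beyond what each alternative leaves out. No paired analysis was possible because each state has 1 list with no replicate columns. Depth is unknown and may differ between the lists.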
